A study of Mus musculus with 4 samples.

Results

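Macrophage genes of the mouse heart were followed in left ventricular RNA (free wall) of 4 mice that received no treatment, as 10 genes among the 38355 in the count table. They were chosen by symbol: Ccr2, Plac8 and Ly6c2 as genes of monocyte-derived macrophages, Lyve1, Timd4, Cd163, Mrc1 and Folr2 as genes of resident macrophages, and Emr1 (now Adgre1) and Csf1r as genes of macrophages in general. Each was chosen with earlier results of these libraries known, so their levels are given as a description. The study asked whether a voltage-sensing fluorescent protein, VSFP2.3, directed to heart muscle cells, harms the heart. WT 1 was a wild-type and TG 1 a VSFP2.3 transgenic male, both 35 weeks old, and WT 2 and TG 2 were a wild-type and a transgenic female, both 19 weeks old. All 4 came from the same parents, and each gave 1 library. Male and female, and 35 and 19 weeks, cannot be told apart. The sources used here do not give the promoter of the transgene or the strain, and the labels name no other allele or agent.

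The adult heart holds macrophages that persist locally and renew by division, and others that arise from circulating monocytes. CCR2, a receptor for the chemokines CCL2, CCL7 and CCL12, is needed for monocytes to leave the bone marrow and marks the monocyte-derived cells. LYVE1, a hyaluronan receptor, and TIMD4, a receptor for phosphatidylserine on dying cells, mark resident cells, while the CSF1 receptor supports the survival of both kinds.

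Libraries held 14158440 to 16762713 counted reads. Levels are CPM, read counts scaled to library size with factors from trimmed means (TMM), and a count of 0 allows up to 3 counts, or 0.182 to 0.213 CPM. Sampling limits of this kind cover counting error only. Ventricular muscle genes were abundant in all libraries. Myl2, the ventricular myosin light chain, was at 7672 to 7948 CPM, but the list of 7 ventricular markers was not as even. Its sum was 111931 CPM in WT 1, 157057 in WT 2, 186587 in TG 1 and 116358 in TG 2. WT 2 stood apart through atrial muscle transcripts, since Myl4, the atrial light chain, was at 75.6 CPM there and at 0.711 to 1.16 CPM in the others. The part of these muscle differences in the results below was not tested, and comparisons of WT 1 with TG 1 do not use WT 2.

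Promoter windows are shown for 2 monocyte-derived and 2 resident genes, as examples whose levels differed between libraries by 15.9-fold (Plac8), 1.96-fold (Ly6c2), 1.83-fold (Mrc1) and 3.80-fold (Cd163), the last in another order of libraries. The sequences are from RefSeq on GRCm38.p6, the assembly behind the mm10 build of the counts. They are the bases before the annotated start, for Ly6c2 at chr15:75111972-75112221, minus strand, Plac8 at chr5:100572246-100572455, minus strand, Mrc1 at chr2:14229164-14229391, plus strand and Cd163 at chr6:124304401-124304650, plus strand. Capitals mark GAGGAA or its reverse complement TTCCTC, the core bound by PU.1, the transcription factor of myeloid cells encoded by Spi1.
Ly6c2: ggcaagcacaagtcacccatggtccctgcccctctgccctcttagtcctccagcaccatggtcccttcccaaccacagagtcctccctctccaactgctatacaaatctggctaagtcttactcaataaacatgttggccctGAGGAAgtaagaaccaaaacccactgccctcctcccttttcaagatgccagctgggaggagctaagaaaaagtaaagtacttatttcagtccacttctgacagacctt
Plac8: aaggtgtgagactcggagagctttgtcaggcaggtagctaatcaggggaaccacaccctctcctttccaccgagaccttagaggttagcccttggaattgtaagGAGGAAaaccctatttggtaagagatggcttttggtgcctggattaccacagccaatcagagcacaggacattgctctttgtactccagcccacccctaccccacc
Mrc1: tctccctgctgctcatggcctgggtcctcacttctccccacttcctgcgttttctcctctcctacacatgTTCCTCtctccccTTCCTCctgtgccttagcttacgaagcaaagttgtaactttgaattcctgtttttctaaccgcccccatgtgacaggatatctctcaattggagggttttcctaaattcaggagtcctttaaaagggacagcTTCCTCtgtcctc
Cd163: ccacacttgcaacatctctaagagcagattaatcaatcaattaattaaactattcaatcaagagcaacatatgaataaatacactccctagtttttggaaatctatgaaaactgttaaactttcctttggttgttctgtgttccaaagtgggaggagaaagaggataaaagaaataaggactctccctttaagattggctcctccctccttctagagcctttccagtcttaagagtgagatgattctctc
The table held windows for 7 of the 10 genes, and 3 of them (Ly6c2, Plac8 and Mrc1) had at least 1 match on either strand in the 250 bases before the start. Of all 32851 windows of that length, 23.3% had a match. That share is per window and not per gene, and Plac8, Ly6c2 and Folr2 had 2 windows each. Plac8 was cut by 40 bases and Mrc1 by 22 where GENCODE starts the gene earlier, and a second Plac8 match lies in the part not shown. The presence of these letters is a description and not a binding site. Spi1 itself was at 9.73 CPM in WT 1, 2.3 in WT 2, 2.56 in TG 1 and 8.04 in TG 2.

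Among the monocyte-derived genes, Ccr2 and Plac8 had high levels in WT 1 and TG 2 and low ones in WT 2 and TG 1. Ccr2 (ENSMUSG00000049103, chromosome 9, 124101950 to 124113557) was at 27.8 CPM in WT 1, 5.63 in WT 2, 2.13 in TG 1 and 31.3 in TG 2, from 458, 88, 30 and 471 counts. Its level was thus 13.1-fold higher in the wild-type than in the transgenic male (95% interval 9.02 to 19.6) and 5.56-fold higher in the transgenic than in the wild-type female (4.42 to 7.06). These intervals are exact binomial ones for the ratio of 2 counts and hold no animal-to-animal spread. In bulk tissue, fewer cells of a kind and less RNA per cell cannot be told apart, here or below.

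Plac8 (ENSMUSG00000029322, chromosome 5, 100553725 to 100572245), which encodes a small cysteine-rich protein of myeloid and lymphoid cells, was counted 30 times in WT 1, 5 in WT 2, 2 in TG 1 and 34 in TG 2. In CPM these counts were 1.82, 0.320, 0.142 and 2.26, the value in TG 1 lying below what a 0 count allows. The ratio of WT 1 to TG 1 was 12.8 (3.25 to 111) and that of TG 2 to WT 2 was 7.06 (2.75 to 23.1). The libraries followed the order seen for Ccr2, with wide limits set by the low counts.

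Ly6c2 (ENSMUSG00000022584, chromosome 15, 75108158 to 75111970), part of the Ly6C surface antigen by which inflammatory monocytes are sorted, varied far less. It was at 4.26 CPM in WT 1, 2.24 in WT 2, 3.06 in TG 1 and 4.38 in TG 2. The male ratio of WT 1 to TG 1 was 1.39 (0.939 to 2.08), a difference not detectable at this depth, and the female ratio of TG 2 to WT 2 was 1.96 (1.28 to 3.04). The value of Ly6c2 is uncertain, because its transcript is 97.6% identical over 822 bases to that of Ly6c1, a gene also expressed by blood endothelium. Ly6c1 was far more abundant, at 80.1, 60.5, 58.8 and 83.2 CPM in WT 1, WT 2, TG 1 and TG 2, and had the same order of high and low libraries apart from that of the lowest 2.

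**Figure D1:**
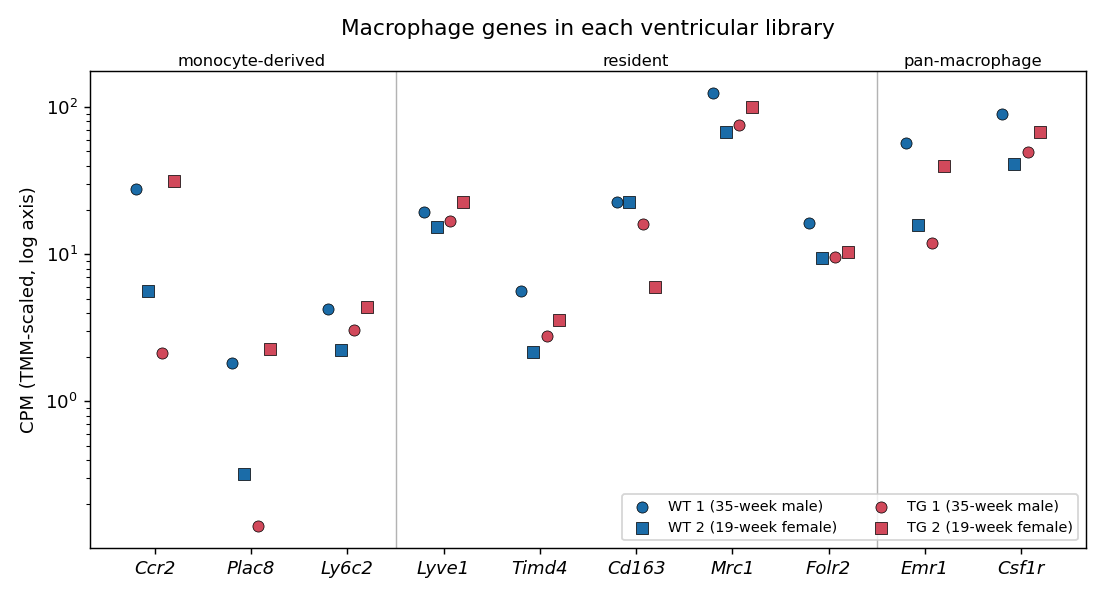
Level of each macrophage gene in each library, in CPM on a log axis, with 1 point per mouse (circles 35-week males, squares 19-week females, blue WT, red TG). Ccr2 spans 2.13 to 31.3 CPM, whereas Lyve1 spans 15.4 to 22.8 CPM, and TG 2 is the lowest library for Cd163 at 5.98 CPM.

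Resident genes varied within narrower limits. The highest library exceeded the lowest by 1.48-fold to 3.80-fold for the 5 resident genes, by 2.17-fold and 4.78-fold for Csf1r and Emr1, and by 1.96-fold to 15.9-fold for the 3 monocyte-derived genes. Mrc1 (ENSMUSG00000026712, chromosome 2, 14229392 to 14332057), the mannose receptor, was the resident gene of highest level per length, with a mean of 14.5 CPM per kilobase (kb) of exon. It was at 125 CPM in WT 1, 68.1 in WT 2, 75.5 in TG 1 and 100.5 in TG 2, so that WT 1 and TG 2 were again the higher libraries. Lyve1 (ENSMUSG00000030787, chromosome 7, 110850607 to 110863239) was at 19.5 CPM in WT 1, 15.4 in WT 2, 16.9 in TG 1 and 22.8 in TG 2. Its ratio of WT 1 to TG 1 was 1.16 (0.976 to 1.38), not detectable at this depth, and that of TG 2 to WT 2 was 1.48 (1.25 to 1.75).

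Timd4 (ENSMUSG00000055546, chromosome 11, 46810800 to 46844332) was at 5.59 CPM in WT 1, 2.17 in WT 2, 2.77 in TG 1 and 3.59 in TG 2, from 34 to 92 counts. Folr2 (ENSMUSG00000032725, chromosome 7, 101839988 to 101857194), a folate receptor of resident cells, was at 16.2 CPM in WT 1 and at 9.47 in WT 2, 9.60 in TG 1 and 10.3 in TG 2. Only WT 1 stood out for Folr2, and TG 2 and WT 2 differed within counting error, at a ratio of 1.09 (0.862 to 1.37). The antisense gene Gm10602 covers 63.1% of the Folr2 exons but held only 1 to 4 counts.

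Cd163 (ENSMUSG00000008845, chromosome 6, 124304656 to 124330527), the scavenger receptor for haptoglobin bound to haemoglobin, did not share the order of the other genes. It was at 22.7 CPM in WT 1, 22.6 in WT 2, 16.0 in TG 1 and 5.98 in TG 2, from 374, 354, 225 and 90 counts. It was the only member lower in TG than in WT in both pairs, by a ratio of WT 1 to TG 1 of 1.42 (1.20 to 1.68) and of WT 2 to TG 2 of 3.79 (3.0 to 4.83). TG 2, the library of highest Ccr2, Plac8, Ly6c2 and Lyve1, was thus the lowest for Cd163.

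Both general macrophage genes were highest in WT 1 and second highest in TG 2. Emr1 (ENSMUSG00000004730, chromosome 17, 57358691 to 57483527), which encodes the F4/80 antigen, was at 57.5 CPM in WT 1, 15.8 in WT 2, 12 in TG 1 and 40.1 in TG 2. Csf1r (ENSMUSG00000024621, chromosome 18, 61100598 to 61132149) was at 89.9 CPM in WT 1, 41.3 in WT 2, 49.7 in TG 1 and 68.2 in TG 2. Emr1 differed more than Csf1r, with a ratio of WT 1 to TG 1 of 4.78 (4.05 to 5.66) against 1.81 (1.65 to 1.98), 2 intervals that do not overlap. On the opposite strand, Hmgxb3 covers 15.1% of the Csf1r exons and held 393 to 606 counts.

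**Figure D2:**
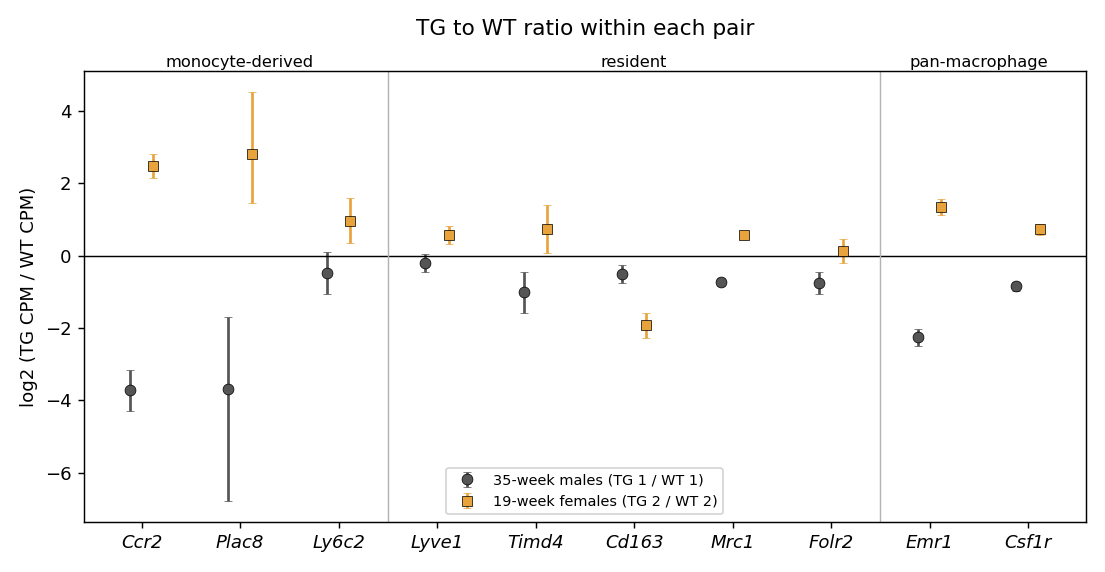
Ratio of TG to WT CPM on a log2 scale within the 35-week males (circles) and the 19-week females (squares), with bars for the exact binomial 95% interval of the counts. Values of the males lie below 0 for all 10 genes and those of the females above 0 for 9, Cd163 being the exception.

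Ratios of TG to WT within the pairs (log2, with a prior count of 2) were farthest from 0 for Ccr2 and Plac8. Ly6c2 lay among the resident genes in the males, but above each of them in the females. In the males they were -3.63 for Ccr2, -2.84 for Plac8 and -0.46 for Ly6c2, against -0.21 for Lyve1, -0.98 for Timd4, -0.50 for Cd163, -0.73 for Mrc1 and -0.75 for Folr2. In the females they were 2.45, 2.41 and 0.93 for the monocyte-derived genes in the same order, against 0.56, 0.69, -1.90, 0.56 and 0.12 for the resident genes. Medians were -2.84 and 2.41 for the monocyte-derived set and -0.73 and 0.56 for the resident set, in males and females, beside 0.00 and -0.01 over all 14189 genes tested. A lower ratio than 0 in males with a higher one in females was found for 9 of the 10 genes and for 31.9% of all genes tested. Since the genes were chosen with this pattern known, nothing is read from that count.

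Levels relative to Csf1r in the same library do not depend on the scaling between libraries. With both genes per kb of exon, Ccr2 was at 0.265 of Csf1r in WT 1, 0.116 in WT 2, 0.0367 in TG 1 and 0.392 in TG 2. Plac8 had the same order, at 0.0736, 0.0281, 0.0104 and 0.120. Mrc1 stayed between 1.26 and 1.49 of Csf1r, Timd4 between 0.140 and 0.165 and Ly6c2 between 0.0998 and 0.135 in the 4 libraries. On this scale Ly6c2 varied far less than Ccr2 and Plac8. Cd163 ranged from 0.0927 in TG 2 to 0.579 in WT 2, and Lyve1 from 0.430 in WT 1 to 0.738 in WT 2.

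**Figure D3:**
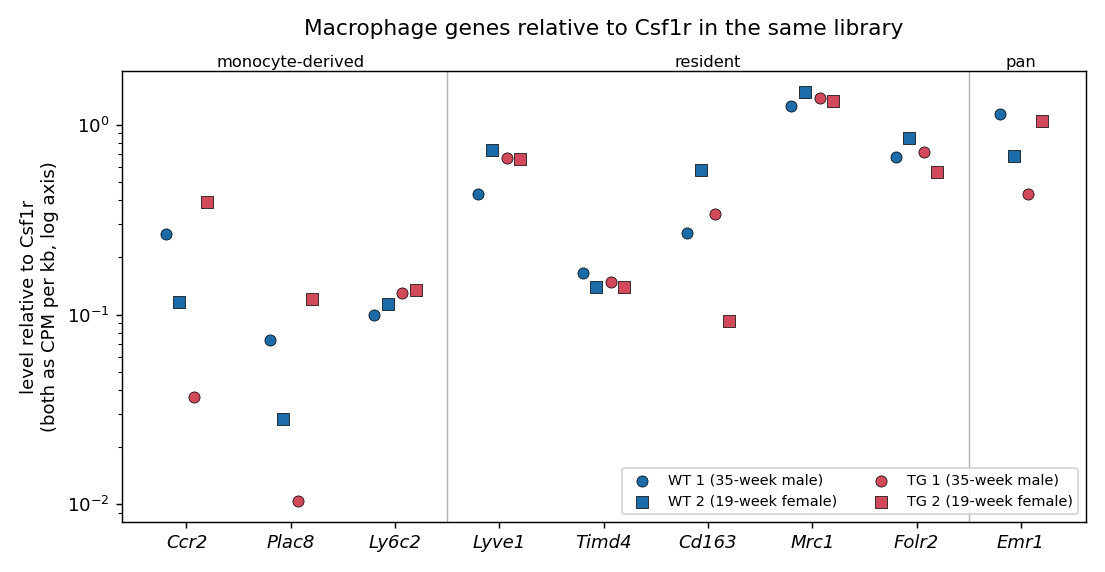
Level of each gene divided by that of Csf1r in the same library, both in CPM per kb, on a log axis (symbols as in the plot of levels by library). Ccr2 and Plac8 spread over more than a decade, Mrc1 stays between 1.26 and 1.49, and Cd163 is lowest in TG 2 at 0.0927.

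Summed over their genes, the monocyte-derived levels were 6.82 CPM per kb in WT 1, 1.85 in WT 2, 1.52 in TG 1 and 7.64 in TG 2, and the resident levels 43.5, 27.2, 28.0 and 33. The quotient of the 2 sums was 0.157 in WT 1, 0.0679 in WT 2, 0.0543 in TG 1 and 0.232 in TG 2. WT and TG libraries overlapped in this quotient. Without Ly6c2, whose counts cannot be told fully apart from those of Ly6c1, it was 0.121, 0.0379, 0.0144 and 0.183, in the same order of libraries.

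Between TG and WT, 0 of the 10 genes passed the quasi-likelihood test of edgeR at a Benjamini-Hochberg adjusted p of 0.05, beside 0% of all genes (99 of 14189 had an unadjusted p below 0.05, limma-voom called 0 genes and DESeq2 3, none of them a member). Mean levels (± SD, n = 2) of Ccr2 were 16.7 ± 15.7 CPM for WT and 16.7 ± 20.6 CPM for TG, those of Lyve1 17.5 ± 2.90 and 19.8 ± 4.19, and those of Cd163 22.7 ± 0.0673 and 11 ± 7.09. Log2 fold changes of TG over WT (± SE) were -0.00 ± 1.28 for Ccr2, 0.17 ± 1.30 for Plac8 and 0.20 ± 0.43 for Ly6c2. For the resident genes they were 0.18 ± 0.23 for Lyve1, -0.29 ± 0.52 for Timd4, -1.05 ± 0.47 for Cd163, -0.13 ± 0.34 for Mrc1 and -0.37 ± 0.30 for Folr2, and for Emr1 and Csf1r -0.49 ± 0.80 and -0.15 ± 0.40. Cd163 had the smallest unadjusted p, 0.0756, and each of the 10 had an adjusted p of 1.00 by edgeR. The CPM of TG and WT did not overlap for 1 of the 10, Cd163, and for 21.0% of all genes. With 2 mice of each genotype, the p-values measure only how these 4 animals varied.

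Between the 35-week males and the 19-week females, 0 of the 10 genes passed the same test, beside 0.0282% of all genes (513 of 14189 had an unadjusted p below 0.05, limma-voom called 4 genes and DESeq2 33, none of them a member). The CPM of males and females did not overlap for 0 of the 10, beside 31.5% of all genes. Log2 fold changes of males over females lay between -0.36 ± 1.30 for Plac8 and 0.54 ± 0.47 for Timd4. A fit of the difference of the TG to WT ratio between the pairs called Ccr2, Plac8 and Emr1, or 3 of 10, beside 2.72% of all genes. All 3 were on the lower side, where 2.37% of all genes were called, against 0.352% on the higher side. That fit compares WT 1 and TG 2 with WT 2 and TG 1, and the genes were chosen with its results known, so nothing is read from the count. It was 0 of 10 without WT 1 and 1 of 10 without TG 2.

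Other genes of the same cells were taken from lists made by known role. Of 18 other monocyte and recruited-macrophage genes 12 had enough counts to be tested. All 12 had a TG to WT ratio below 0 in males and above 0 in females, beside 31.9% of all genes tested. Medians of the 12 were -2.17 and 1.85. Itgax, the integrin CD11c, was at 8.33 CPM in WT 1, 0.128 in WT 2, 0.569 in TG 1 and 5.05 in TG 2. Spn, the sialophorin CD43, was at 15.9, 1.09, 0.640 and 13.9 CPM, and Plbd1, a lysosomal phospholipase, at 46.6, 21.9, 15.5 and 41.2. Vcan, a matrix proteoglycan also made by other cells of the heart, varied less, at 82.9, 96.5, 71.9 and 119 CPM. The fit between the pairs called 8 of these 12, beside 2.72% of all genes, and the fit between TG and WT 0. The 8 became 1 without WT 1 and 3 without TG 2.

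Of 18 other resident-macrophage genes 15 were tested, with medians of -0.36 in males and 0.18 in females. Of these, 11 had the male ratio below 0 and the female ratio above 0, beside 31.9% of all genes tested. F13a1, the factor XIII A subunit, was at 119 CPM in WT 1, 59.6 in WT 2, 78.8 in TG 1 and 95 in TG 2. Gas6, a bridging ligand in the uptake of dying cells, differed little, at 143, 151, 146 and 149 CPM. The selenoprotein gene Sepp1 was at 508, 365, 442 and 442 CPM, a 1.39-fold span. Its ratio of WT 1 to TG 1 was 1.15 (1.11 to 1.19) and that of TG 2 to WT 2 was 1.21 (1.17 to 1.26). Stab1, a scavenger receptor, was at 116, 132, 115 and 90.8 CPM and lowest in TG 2, as was Cd163. The fit between the pairs called 0 of these 15, beside 2.72% of all genes (2 of the 18 when no filter on low counts was used). The fit between TG and WT called 0. Gas6, Sepp1 and Stab1 are also expressed by other cells of the heart.

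Of 18 other general macrophage genes, all tested, 16 had the male ratio below 0 and the female ratio above 0, beside 31.9% of all genes tested. Medians of the 18 were -1.77 and 1.47. C1qa, a subunit of complement C1q, was at 132 CPM in WT 1, 36.4 in WT 2, 33.6 in TG 1 and 94.6 in TG 2, and Lyz2, lysozyme, at 293, 104, 102 and 235. Cx3cr1, the fractalkine receptor, was at 30.4, 6.72, 5.05 and 26.7 CPM. The fit between the pairs called 13 of the 18, beside 2.72% of all genes, and that between TG and WT 0. The count was 2 without WT 1 and 7 without TG 2.

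**Figure D4:**
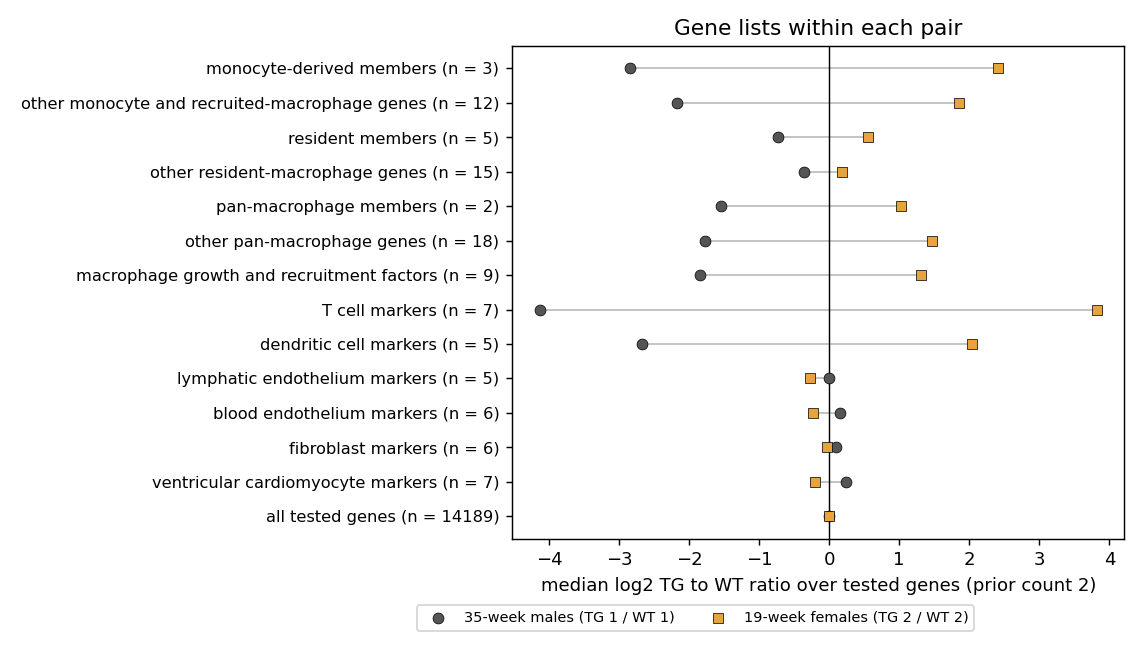
Median log2 TG to WT ratio over the tested genes of each list in the 35-week males (circles) and the 19-week females (squares), with the number of genes tested. Monocyte-derived genes lie at -2.84 and 2.41 and resident genes at -0.73 and 0.56, while all tested genes lie at 0.00 and -0.01.

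Ligands of these receptors did not all follow. For CCR2, the ligand gene Ccl2 was at 8.45 CPM in WT 1, 2.56 in WT 2, 1.92 in TG 1 and 3.92 in TG 2, Ccl7 at 5.96, 1.22, 1.49 and 4.18, and Ccl12 at 4.74, 0.896, 0.782 and 3.52. Ccl8, a chemokine made by macrophages, was at 26.7, 0.448, 0.782 and 28.0 CPM. For CSF1R, the ligand gene Csf1 was at 71.7, 53.2, 57.8 and 45.1 CPM and lowest in TG 2, and Il34 at 3.16, 3.33, 3.77 and 2.79. Csf2, the ligand gene of the granulocyte-macrophage receptor, had 0 counts in every library. These genes belong to a list of growth and recruitment factors that also holds Cx3cl1 and the receptor genes Csf2ra and Csf2rb. Of the 9 tested genes of the list the fit between the pairs called 3 (Ccl7, Ccl8 and Ccl12), beside 2.72% of all genes. The fit between TG and WT called 0. The 3 became 1 when any 1 of the 4 libraries was left out, 1 by limma-voom and 6 without the filter.

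Markers of other cells that can express the same genes moved with some of them, and their part in the results was not tested. All 7 T cell markers had the male ratio below 0 and the female ratio above 0, beside 31.9% of all genes tested. The T cell markers summed to 33.6 CPM in WT 1, 1.92 in WT 2, 0.925 in TG 1 and 32.4 in TG 2. Cd5 was at 0 in WT 2 and Cd8a at 0 in TG 1. Natural killer cell markers summed to 8.21, 1.02, 0.142 and 6.44 CPM, with 4 of 6 at 0 in TG 1 (among them Ncr1 and Gzma). Plac8 and Ccr2 are known in such lymphocytes too. Of the dendritic cell markers 4 of 5 tested had that order, for example Xcr1 at 5.65, 0.640, 0.356 and 3.72 CPM, while the list's sum, mostly from Zbtb46, was 36.8, 40.6, 32.4 and 37.2. B cell markers summed to 2.37, 1.28, 1.14 and 3.19 CPM. Neutrophil markers were scarce, summing to 4.93, 1.34, 1.21 and 4.05 CPM, with Ly6g at 0 in all but WT 1, where it had 1 count. The 1 B cell and 2 neutrophil markers tested had that order too.

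Markers of lymphatic endothelium, which also expresses Lyve1, differed among themselves. The 6 summed to 222 CPM in WT 1, 253 in WT 2, 317 in TG 1 and 215 in TG 2, with Ccl21a at 0 in all 4 libraries and most of the sum from Prox1, which heart muscle cells express too. Flt4, a receptor of lymphatic growth factors, was at 39.3, 40.2, 31.5 and 42.0 CPM and the lymphatic gene Mmrn1 at 16.7, 17.1, 15.6 and 17.8. Both were highest in TG 2, as was Lyve1, and lowest in TG 1, whereas Lyve1 was lowest in WT 2. Their ratios of TG 2 to WT 2 lay within counting error, at 1.04 (0.934 to 1.17) and 1.04 (0.873 to 1.23). Other markers went the other way, with only 2 of the 5 tested having a female ratio above 0. Prox1 was at 142, 162, 237 and 134 CPM and Reln at 19.5, 29.2, 29.2 and 18.9, both lowest in TG 2. Markers of blood endothelium, which also expresses Ly6c1, summed to 902, 1162, 1024 and 957 CPM and were lowest in WT 1, where Ly6c1 was at 80.1 CPM.

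By distance between log2 CPM profiles centred over the 4 libraries, the tested genes closest to Ccr2 were Mmp12, Kcna3, Il18rap, Fgr and Ptprcap, with distances of 0.0953 to 0.410 among 12732 genes. All 5 were of low level, for example Fgr at 2.74, 0.384, 0.142 and 2.52 CPM. In TG 1, Mmp12 and Kcna3 were at 0 and Il18rap and Ptprcap at 0.0711 CPM. These levels lie within what a 0 count allows, so the prior count of 2 weighed on the distances. The genes closest to Cd163 were Kcnc2, Adamts20, Col28a1, Prnd and Cd209f, at distances of 0.341 to 0.435. Cd209f, a lectin gene on the list of resident-macrophage genes, was at 2.49 CPM in WT 1, 1.79 in WT 2, 1.92 in TG 1 and 0.531 in TG 2, and Prnd at 7.42, 6.08, 5.19 and 2.26. A likeness over 4 points is a description.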

How the data were processed

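RNA of 4 left ventricular free walls was sequenced with a stranded total RNA kit on a HiSeq2000, per the labels' protocols. The authors deposited raw read counts per Ensembl gene and, in a second table, a normalized signal that equalled these counts divided by 1 factor per library (0.917 to 1.08). The submitters' processing notes name build mm10 and the tools STAR 2.3.0, HTSeq 0.6.1, DESeq, CASAVA 1.8.2 and FastQC 0.10.0. The annotation release and strand setting are not given in the sources used here, so reads of overlapping genes on opposite strands may not be separated. Column headers were matched to mice by the number in the labels.

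Counts were analysed with edgeR 4.0.16 in R 4.3.3 (filterByExpr with a minimum count of 10, TMM, quasi-likelihood test, Benjamini-Hochberg adjustment over 14189 genes, threshold 0.05), without a block. The fit between the pairs held the interaction of genotype and pair as its only term, with 2 residual degrees of freedom. The fits of TG against WT and between the pairs were tested on simulated data. DESeq2 1.42.0, limma-voom 3.58.1, other scaling, no filter, a replicate block and leaving out each library were alternatives. Lengths and positions came from GENCODE M21, and transcript identity from BLAST 2.17.0. Members and lists were chosen with earlier results of these data known. All 10 members were named, from each list the 4 tested genes of highest mean CPM and called genes could be, with all ligand genes and paralogs (1 paralog is not reported here), and for Ccr2 and Cd163 the 5 closest profiles.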

Additional observations from a re-analysis of the deposited data

Results flagged for a closer look

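For 9 of the 10 genes the TG to WT ratio went in opposite directions in the male and the female pair, as it did in the same order for 31.9% of all genes tested. One of the directions lay within counting error for Ly6c2 and Lyve1 (males) and for Folr2 (females). The male minus the female log2 ratio was -6.07 for Ccr2, -5.25 for Plac8 and -1.39 for Ly6c2 among the monocyte-derived genes. It was -0.77 for Lyve1, -1.67 for Timd4, -1.29 for Mrc1 and -0.87 for Folr2 among the resident genes, and -3.58 for Emr1 and -1.57 for Csf1r. Each value rests on 1 mouse of each genotype and pair, the genes were chosen with this pattern known, and the difference was not tested on other animals.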

How the results depend on the processing

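The 60 values of the pair ratios under the alternatives (scaling, prior count, the authors' normalized values) kept their sign and lay within the counting interval. No alternative made a member pass between TG and WT (smallest adjusted p 0.998) or between males and females (0.919). Genes called between TG and WT numbered 0, and 3 by DESeq2. Leaving out each library in turn gave 0 to 6, the 6 without WT 1. Between males and females the count was 4, with 7 without the filter, 33 by DESeq2 and 0 to 7 with 1 library left out (7 without TG 2, 0 without each of the others). Between the pairs it was 386, with 908 without the filter, 703 by DESeq2 and 40 to 347 with 1 library left out (40 without WT 1, 109 without TG 2). Members called there were 3, with 5 by DESeq2 and without the filter and 0 to 2 with 1 library left out. Replicate numbers share sex and age, and the difference of replicate 1 from replicate 2 correlated at -0.449 between WT and TG over the tested genes. With the replicate number as a block in edgeR, 0 genes were called between TG and WT (61 below an unadjusted 0.05). The log2 fold change of Plac8 was then -0.15 and that of Ccr2 -0.48. By limma-voom without a block they were -0.32 and -0.58, with no call in either fit. With the pairing crossed, 0 genes were called. With RLE scaling the log2 fold change of Ccr2 was 0.00022. With 1 library left out, where the lone library of its group is assumed to vary like the other group, log2 fold changes of TG over WT ranged over -2.97 to 1.57 for Ccr2, -2.85 to 1.89 for Plac8, -0.19 to 0.73 for Ly6c2, -0.051 to 0.38 for Lyve1, -0.81 to 0.55 for Timd4, -0.51 to 0.37 for Mrc1, -0.70 to 0.072 for Folr2, -1.61 to 0.72 for Emr1 and -0.61 to 0.51 for Csf1r, changing sign for each of these 9, while Cd163 stayed between -1.92 and -0.50. Those of males over females ranged over -3.11 to 1.42 for Ccr2, -3.10 to 1.62 for Plac8, -0.26 to 0.71 for Ly6c2, -0.33 to 0.24 for Lyve1, -0.053 to 0.95 for Timd4, -0.22 to 1.69 for Cd163, -0.16 to 0.57 for Mrc1, -0.041 to 0.71 for Folr2, -1.22 to 1.14 for Emr1 and -0.14 to 0.76 for Csf1r. The quotient of monocyte-derived to resident sums without Mrc1 was 0.285, 0.112, 0.0939 and 0.444 in WT 1, WT 2, TG 1 and TG 2, in the same order. The cause of these changes was not tested. Depth limited Plac8, at 2 and 5 counts in the low libraries.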
